A study of Caenorhabditis elegans with 2 samples.

Results

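The retinoblastoma homologue lin-35 and 7 genes of its DREAM complex (efl-1, dpl-1, lin-9, lin-37, lin-52, lin-53 and lin-54) were described as possible targets in a chromatin immunoprecipitation and sequencing (ChIP-seq) experiment on the homeobox protein CEH-83 of Caenorhabditis elegans. They are 8 of 19973 annotated nuclear protein-coding genes, named as a list that was chosen by a reading of the same region lists, with the signal and rank of their regions known. Their values are therefore given as a description and without a test. The animals were mixed-stage embryos of pooled sex from strain OP727, obtained by bleaching and labelled as 1 hour of age. The strain carries the unc-119 allele tm4063 and the integrated array wgIs727, which holds ceh-83 fused to TY1, EGFP and 3xFLAG tags together with unc-119(+). There was 1 group of 2 biological replicates, precipitated with an antibody against GFP, and the labels name neither a second genotype nor a treatment. The labels do not name the promoter that drives the fusion, no library from untagged animals was analysed, and RNA was not measured. A region below is a called enrichment, and binding by CEH-83 itself was not tested.

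The DREAM complex joins a retinoblastoma-family pocket protein, an E2F and DP transcription factor pair and a core of MuvB proteins, and it represses its target genes. In the worm it is known for holding back cell cycle genes and for keeping germline genes off in somatic cells, and mutations in its genes belong to the synthetic multivulva class B (synMuv B). The E2F and DP pair recognises E2F sites in DNA, and LIN-54 binds the cell cycle homology region (CHR).

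The authors deposited 4 lists of regions on assembly ce11. Each replicate gave a relaxed list of 30000 regions, the reads of both replicates together gave a pooled list of 30000, and a shorter IDR list was derived from these by the irreproducible discovery rate, a measure of how well ranked regions recur between replicates. The IDR regions were the 4.19% of pooled regions with the highest signal, down to 189.6. The signal is the authors' own value for each region, used here to describe and rank regions within 1 list. In the pooled list it ran from 81.8 to 1777 with a median of 106.5, in that of replicate 1 from 40.4 to 813.5 and in that of replicate 2 from 44.5 to 964.6. The depth of the libraries is unknown.

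A region was assigned to a gene when its summit lay from 1000 bp upstream of the gene start to the gene end. IDR summits were found at 2 of the 8 genes, lin-35 and lin-54, beside 5.44% of all protein-coding genes. Pooled summits were found at 7 of 8, beside 61.9% of all genes, and lin-9 was the gene without one. Replicate 1 had summits at 7 of 8 (62.2% of all genes) and replicate 2 at 8 of 8 (61.7%). When each replicate list was cut to the length of the IDR list, lin-35 and lin-54 were again the 2 genes with a summit, beside 5.48% of all genes in replicate 1 and 5.27% in replicate 2. Since the list was chosen with these calls in view, none of these shares is read as a property of the complex. In all there were 3 IDR summits, 17 pooled summits, 16 summits of replicate 1 and 16 of replicate 2 in the 8 windows. The windows had a median length of 3507 bp, against 3027 bp over all genes. By their best pooled rank the genes stood in the order lin-35 (174), lin-54 (400), efl-1 (1664), lin-37 (15688), lin-52 (20888), dpl-1 (24139) and lin-53 (24272). With a gene without a summit placed after the last rank, the median best rank was 18288 for the 8 genes and 20767 for all protein-coding genes. The order has a wide gap after efl-1, and from lin-37 on each gene had its best region at rank 15688 or a weaker one.

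**Figure D1:**
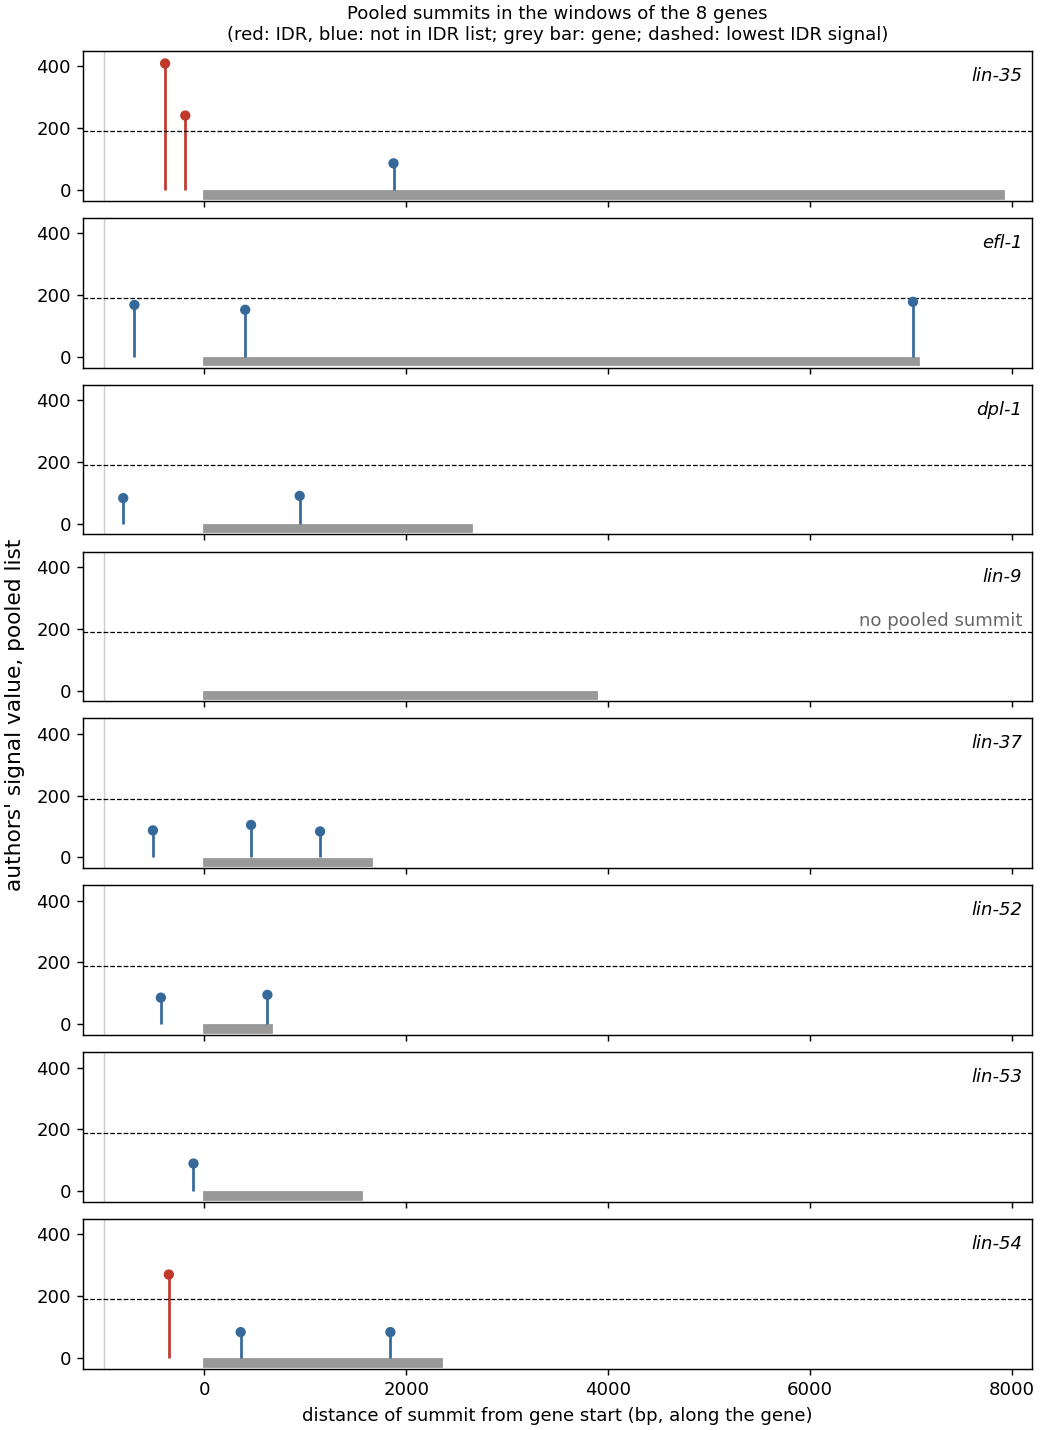
Signal of every pooled summit (authors' value, vertical axis) against its distance from the gene start in bp (horizontal axis) for the 8 genes, with IDR summits in red, others in blue, the gene as a grey bar and the lowest IDR signal dashed. Only lin-35 and lin-54 rise above the dashed line, the 3 summits of efl-1 stand just below it at 152.3 to 178.1, and those of dpl-1, lin-37, lin-52 and lin-53 lie between 82.8 and 105.0.

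The highest region of the set lay upstream of lin-35, which encodes the worm's pocket protein. The gene spans I 5807709 to 5815637 (ce11) on the plus strand. Its highest region spanned I 5807097 to 5807540, with the summit 390 bp upstream of the gene start in intergenic sequence. The signal there was 409.8 in the pooled list (rank 174), 213.9 in replicate 1 (rank 138) and 194.9 in replicate 2 (rank 212). Each replicate thus placed it far above the signal at which its own list reaches the length of the IDR list, which was 93.7 in replicate 1 and 104.0 in replicate 2. The summits of the replicates stood 356 and 390 bp upstream of the start.

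A further IDR region at lin-35 overlapped the first. It spanned I 5807297 to 5807740 with its summit 190 bp upstream of the gene start, and its pooled signal was 241.1 (rank 527). The replicates differed here. In replicate 2 the signal was 122.6 (rank 654), whereas in replicate 1 it was 56.5 (rank 11980), with the summit 37 bp from the pooled one. The replicate 1 value was close to that list's median of 52.8, although the stronger region of replicate 1 at I 5807131 to 5807574 also overlapped this IDR region. The summits of both upstream regions stood 200 bp apart in the pooled list and 203 bp apart in replicate 1. No pair of neighbouring summits in any of the 4 lists was closer than 199 bp. A neighbour closer than the common region width of 444 bp was found for 8.27% of IDR summits and 23.2% of pooled summits. Within the gene, lin-35 had 1 further pooled summit, 1874 bp from its start, with a signal of 86.2 (rank 26679). This summit lay in introns of both lin-35 and C32F10.4, a gene on the other strand whose start was the nearest, 419 bp away. It was present in replicate 2 (46.4) and not in replicate 1.

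The lin-35 promoter is shared. The gene vps-51, for a subunit of the GARP vesicle tethering complex, runs in the opposite direction and starts 418 bp from the lin-35 start. The higher lin-35 summit lay 28 bp upstream of the vps-51 start, so it was nearer to vps-51 than to lin-35. The lower summit lay 228 bp from vps-51 and 190 bp from lin-35. From the positions alone, regions of lin-35 and regions of vps-51 cannot be told apart. Over the whole IDR list, 439 summits lay within 1000 bp upstream of a protein-coding gene start, and 124 of these (28.3%) were upstream of more than 1 gene start.

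The only other gene with an IDR region, lin-54, also had it in a divergent promoter. LIN-54 is the DNA-binding subunit of the MuvB core. The gene spans IV 13241044 to 13243401 on the plus strand, and its IDR region spanned IV 13240469 to 13240912 with the summit 353 bp upstream of the start. The signal was 270.1 in the pooled list (rank 400), 120.3 in replicate 1 (rank 503) and 147.0 in replicate 2 (rank 384). The replicates agreed in position to within 6 bp, at 348 and 354 bp upstream. The ribosomal protein gene rpl-12 starts 393 bp from lin-54 on the other strand, and the summit lay 40 bp upstream of its start. Here, as for the higher lin-35 summit, the neighbour's start was the nearer one.

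The intergenic part of this IDR region is shown because it holds the only called summit of the set in sequence that can be printed here. It runs from the base after the rpl-12 start towards lin-54, at chrIV:13240652-13240912 on the plus strand, and ends 132 bp upstream of the lin-54 start, where the called region ends. It is taken from the RefSeq sequence of assembly WBcel235. Capitals mark words of the E2F site (TTTCCCGC, TTTCGCGC, TTTGCCGC or TTTGGCGC) and of the CHR (TTTGAA or TTCGAA), on either strand.
lin-54 upstream region: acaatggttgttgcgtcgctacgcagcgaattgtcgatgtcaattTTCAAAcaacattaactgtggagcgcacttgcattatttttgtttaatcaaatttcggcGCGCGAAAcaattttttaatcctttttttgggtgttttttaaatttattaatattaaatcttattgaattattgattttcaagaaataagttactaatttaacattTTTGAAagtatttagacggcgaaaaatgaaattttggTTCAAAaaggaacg
The word nearest to the summit was a CHR word that began 347 bp upstream of the lin-54 start. The E2F word, TTTCGCGC on the minus strand, began 288 bp upstream of it. These matches are letters in a window, and whether E2F or LIN-54 proteins bind them was not tested.

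**Figure D2:**
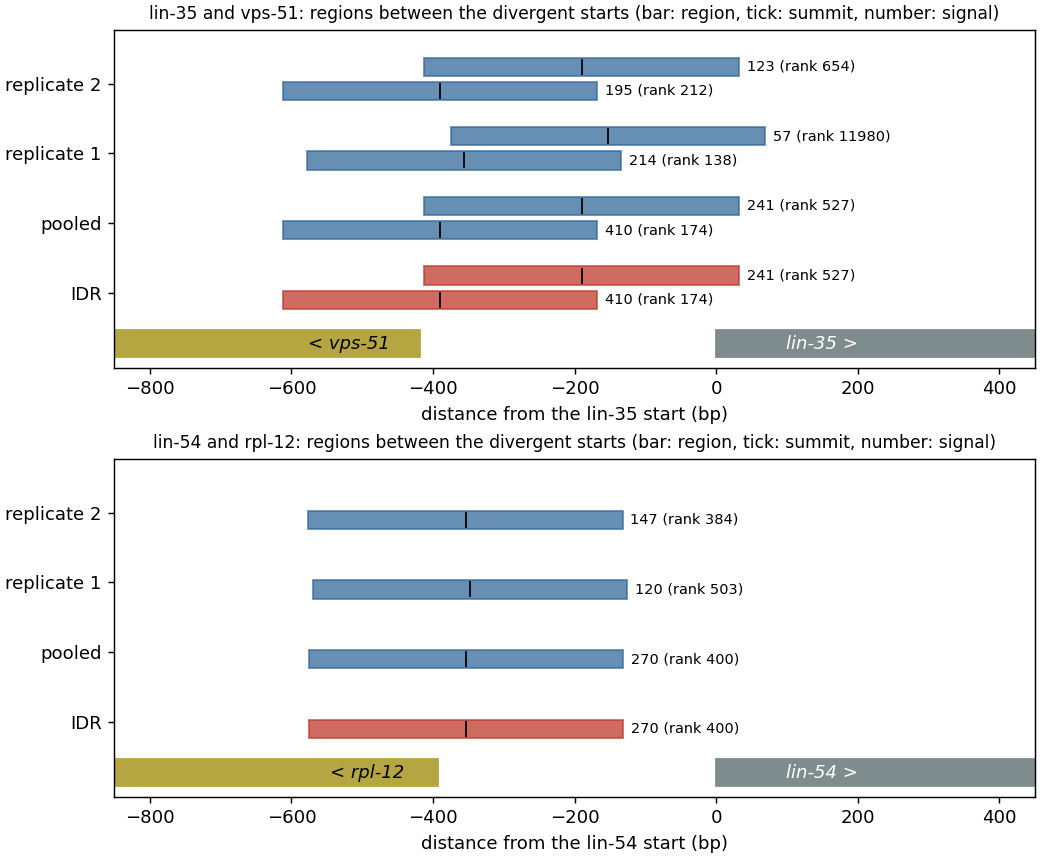
Regions between the divergent starts of lin-35 and vps-51 (top) and of lin-54 and rpl-12 (bottom), with distance from the lin-35 or lin-54 start in bp on the horizontal axis and the 4 lists as rows. Bars are regions and ticks summits, labelled with signal and rank; the summit nearer to lin-35 has a signal of 241.1 in the pooled list and stands at rank 11980 in replicate 1, while the lin-54 region recurs at nearly the same place in all lists.

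Inside the lin-54 gene the signal was low. Pooled summits 359 and 1843 bp from the start had signals of 83.6 each (ranks 28623 and 28657), near the lowest value in the list. Each had a summit within 100 bp in replicate 1 and none in replicate 2. The one at 1843 bp also lies 788 bp upstream of the start of JC8.4, the next gene on the same strand, and is nearer to that start. The upstream summit was thus the only one at lin-54 that both replicates shared.

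The E2F gene efl-1 came closest to the IDR list without entering it. EFL-1 is the worm E2F that acts with LIN-35, and the gene spans V 16958590 to 16965675 on the minus strand. Its 3 pooled summits had signals of 178.1 (rank 1664), 168.1 (rank 2192) and 152.3 (rank 3535), below the lowest IDR signal of 189.6. The first lay 7023 bp from the start, in the 3' UTR of efl-1. It had a signal of 89.0 in replicate 1 (rank 1610) and 87.4 in replicate 2 (rank 2837). The second lay 694 bp upstream of the start, with 67.0 in replicate 1 (rank 6167) and 98.9 in replicate 2 (rank 1607). The last lay in a coding exon 404 bp from the start, with 72.2 in replicate 1 (rank 4303) and 75.3 in replicate 2 (rank 5587). All 3 had a summit in both replicates, but neither replicate ranked any of them above 1607. Replicate 2 held 2 more summits at the gene, at 54.2 and 45.8. The upstream summit lay 445 bp from the start of the divergent gene fbxa-90, and so nearer to it than to efl-1.

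The sequence around the upstream and coding summits of efl-1 is shown because these were the strongest regions of the set outside the IDR list that do not lie in a UTR. Both windows reach 50 bases to either side of the pooled summit, read along the gene on the minus strand from RefSeq WBcel235, at chrV:16966319-16966419 and chrV:16965221-16965321. Capitals mark CHR words as above.
efl-1 upstream summit: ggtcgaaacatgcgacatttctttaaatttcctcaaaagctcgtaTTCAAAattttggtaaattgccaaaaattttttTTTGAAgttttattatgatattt
efl-1 coding summit: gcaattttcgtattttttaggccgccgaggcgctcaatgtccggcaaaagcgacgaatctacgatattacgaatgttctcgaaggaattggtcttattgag
The upstream window held 2 CHR words and no E2F word, and the coding window held neither. The G and C content was 25.7% in the first and 44.6% in the second, against a median of 38.6% over all pooled windows of this size. Of the 171 words of 31 bases within 100 bp of the upstream summit, 129 (75.4%) occurred once in the genome. At each of the other 16 pooled summits of the set all 171 did.

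The DP gene dpl-1, whose product pairs with EFL-1 to bind DNA, had only weak regions. It spans II 9169910 to 9172565 on the plus strand and lies wholly within T23G7.2, a gene on the opposite strand. Its pooled summits stood 944 bp inside the gene with a signal of 89.9 (rank 24139) and 805 bp upstream with 82.8 (rank 29299). Replicate 1 had a summit near each, at 44.6 and 41.9. Replicate 2 had none within 100 bp of either, and its 1 summit in the window, at 52.4, stood 652 bp upstream of the start.

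The genes of the remaining MuvB subunits had no region above a pooled signal of 105.0. LIN-9, LIN-37 and LIN-52 belong to the MuvB core, and LIN-53 is a histone-binding protein of the RbAp48 family that is also part of other chromatin complexes. The gene lin-37 (III 7070890 to 7072552, minus strand) had pooled summits of 105.0 (rank 15688) 462 bp inside the gene, 87.4 upstream by 511 bp and 84.0 inside by 1146 bp. At the first of these, replicate 1 had a signal of 67.9 (rank 5762) and replicate 2 had no summit within 100 bp. The upstream one was present in both replicates at 45.8 and 45.1, and it lay in a coding exon of the neighbour ZK418.5.

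The gene lin-52 (III 9824083 to 9824750, minus strand) had a pooled summit of 95.1 (rank 20888) at its 3' end, 624 bp from the start. That position is in the 3' UTR of lin-52 and of the convergent gene arl-5, and the signal was 40.6 in replicate 1 and 52.6 in replicate 2. A pooled summit of 86.0 lay 432 bp upstream within ZK632.9 and was seen in replicate 1 alone. The gene lin-53 (I 9618196 to 9619760, minus strand) had 1 pooled summit, 118 bp upstream of its start, with a signal of 89.7 (rank 24272). It stood at 46.4 in replicate 1 and at 44.6 in replicate 2, in each case low in the list (ranks 21694 and 29914). The gene nra-2 starts 467 bp from lin-53 in the opposite direction, so this intergenic summit also falls in a shared promoter.

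The only region found at lin-9 was in replicate 2. The gene spans III 8900237 to 8904131 on the minus strand. The summit of that region stood 426 bp inside the gene in a coding exon, with a signal of 48.1 (rank 25327). The nearest pooled summit outside the window lay 3313 bp beyond it. For the 8 genes the nearest pooled summits outside the window had signals from 88.2 to 156.5, below the IDR list. The highest of these, 180 bp beyond the window of lin-52, lay in a coding exon of arl-5 (rank 3081). At lin-37 the nearest was 100 bp beyond the window with a signal of 134.5, in a coding exon of ZK418.5.

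Close same-strand neighbours were a feature of 3 of these genes. ZK418.5 ends 60 bp before lin-37, ZK632.9 ends 126 bp before lin-52, and lin-53 ends 88 bp before rba-1, its paralogue. Short gaps between genes of the same strand are typical of worm operons, in which a promoter upstream of the first gene serves the later ones; whether these genes are so transcribed was not tested. The 1000 bp upstream of lin-37 and lin-52 therefore held another gene of the same strand.

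The sequence upstream of efl-1 and lin-9 is shown next, since both carry E2F words and the data gave no IDR summit at either. Each run is the 250 bases before the annotated gene start, read along the gene on the minus strand from RefSeq WBcel235, at chrV:16965676-16965925 and chrIII:8904132-8904381. Capitals mark E2F and CHR words.
efl-1 promoter: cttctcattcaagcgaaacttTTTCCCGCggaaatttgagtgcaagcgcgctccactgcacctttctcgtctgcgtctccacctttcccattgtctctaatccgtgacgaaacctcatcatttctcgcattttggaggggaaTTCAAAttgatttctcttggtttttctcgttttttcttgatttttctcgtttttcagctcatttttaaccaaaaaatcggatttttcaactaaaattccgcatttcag
lin-9 promoter: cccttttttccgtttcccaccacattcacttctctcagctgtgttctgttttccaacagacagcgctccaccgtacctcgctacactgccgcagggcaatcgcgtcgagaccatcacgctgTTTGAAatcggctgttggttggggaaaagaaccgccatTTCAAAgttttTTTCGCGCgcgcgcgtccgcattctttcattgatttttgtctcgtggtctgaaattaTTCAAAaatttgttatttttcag
The E2F word of efl-1, TTTCCCGC, began 229 bp upstream of the start and that of lin-9, TTTCGCGC, 80 bp upstream. The efl-1 run held 1 CHR word and the lin-9 run held 3. No pooled summit lay in either run.

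Over windows of 300 bases, from 250 bp before to 50 bp after the gene start, E2F words were present at 3 of the 8 genes (efl-1, lin-9 and lin-53), against 4.69% of all protein-coding genes. CHR words were present at 6 of 8, against 68.9% of all genes. None of the 3 genes with an E2F word in this window had an IDR summit, beside 5.44% of all protein-coding genes. With so few genes, no relation between E2F words and IDR summits is read from this. The E2F word printed above for lin-54, 288 bp upstream of its start, lies outside this window. Around the 17 pooled summits themselves, within 50 bp to either side, E2F words were found at 1 (lin-53) and CHR words at 5, beside 2.36% and 28.5% of all pooled windows. In IDR windows the shares were 2.86% and 20.7%. Neither upstream summit of lin-35 had an E2F or CHR word within 50 bp. The homeodomain core TAATTA, which reads the same on both strands and contains TAAT, was found at 1 pooled summit, the intronic one of lin-35, and at none of the 3 IDR summits; it was present in 4.03% of pooled and 2.31% of IDR windows. TAAT alone was found at 11 of the 17, against 57.1% of pooled windows. The word GAGAGA was at none of the 17, against 7.13% of pooled windows.

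Both printed promoters end in TTTCAG, the sequence that the worm's spliceosome uses as a splice acceptor. Many worm transcripts begin at such a site, where a spliced leader replaces the original 5' end, and their transcription then starts further upstream. TTTCAG stood directly before the annotated start of 4 of the 8 genes (efl-1, lin-9, lin-52 and lin-53), against 12.3% of all protein-coding genes, and AG before 7 of 8, against 27.6%. The exception was lin-54. The distances given here are from the annotated start, which may not be the site of initiation.

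Of the 17 pooled summits, 9 had a summit within 100 bp in both replicate lists and 8 in 1 of them, beside 50.9% of all pooled summits found in both. All 3 IDR summits and all 3 efl-1 summits were among the 9, although the lower lin-35 summit had very different ranks in the replicates. The remaining 3 were the upstream summit of lin-37, the 3' end of lin-52 and the summit of lin-53, which were 3 of the 10 member summits from rank 20001 on. Over all regions both replicates matched 94.0% of IDR summits, 89.2% of the further pooled regions down to rank 5000 and 12.3% of ranks 20001 to 30000. Of the 8 summits seen in 1 replicate, 7 were matched in replicate 1 and 1 in replicate 2. Since the pooled list ranks the reads of both replicates together and there are only 2, no test compares them.

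**Figure D3:**
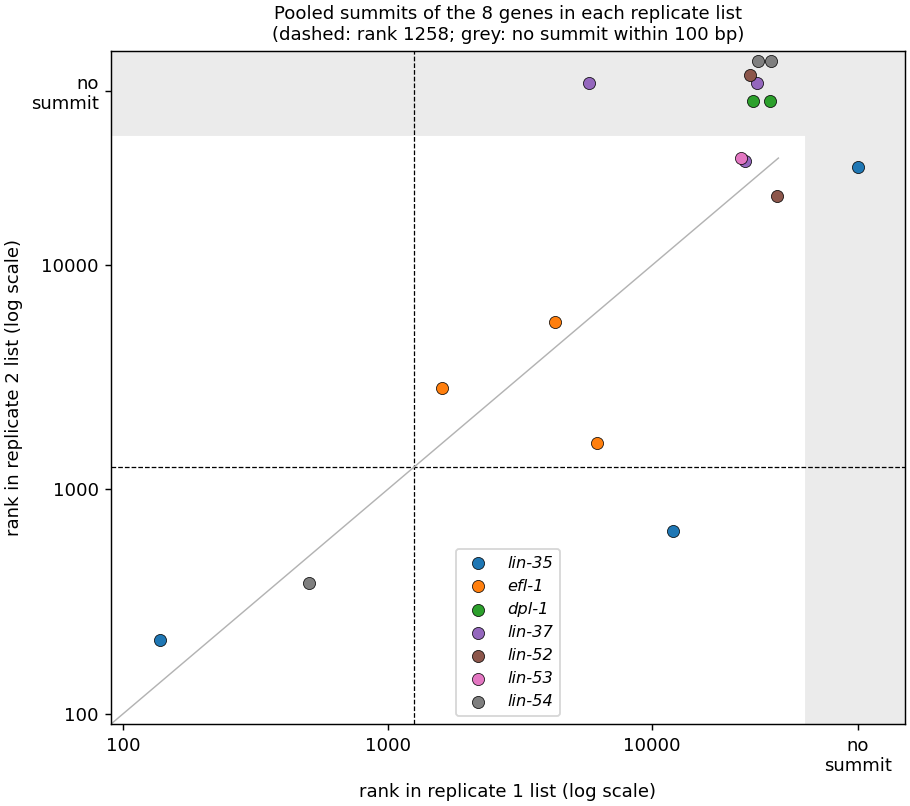
Rank of each pooled summit of the 8 genes in replicate 1 (horizontal) and replicate 2 (vertical), both on log scales, with dashed lines at the length of the IDR list and a grey margin for no summit within 100 bp (points there are spread for legibility). The higher lin-35 summit and that of lin-54 lie inside both lines, the lower lin-35 summit is inside for replicate 2 alone (654 against 11980), and the 3 efl-1 summits lie outside both.

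Among the 1036 other protein-coding genes whose highest IDR summit could be ranked in all 3 relaxed lists, those with ranks most like lin-35 were found by the summed absolute log10 ratio of ranks over these lists. The gene at a distance of 0 was vps-51, which has the same region. It was followed by cogc-3 (0.0811), for a Golgi tethering subunit, ppat-1 (0.0828), cdc-7 (0.0873), for a kinase that starts DNA replication, and Y62F5A.9 (0.0948). Their pooled signals were 405.0, 413.7, 393.8 and 419.7. The summits at cogc-3, ppat-1 and Y62F5A.9 lay in introns 12 bp from the snoRNA gene Y71F9AM.7, 74 bp from the snoRNA gene T04A8.17 and inside the microRNA gene mir-36. That of cdc-7 lay in a coding exon with no such gene within 200 bp. At lin-35 the nearest tRNA, snoRNA, snRNA, microRNA or rRNA gene was 18401 bp from the higher summit, and at lin-54 it was 1614 bp away.

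Beyond the complex, 56 related genes were counted in the same windows, from lists written with earlier results of these data known. They are other synMuv B genes, synMuv A genes, genes acting against synMuv B, cell cycle genes, replication genes and paralogues of the members. They are called pathway genes for short, though they do not form a single pathway. IDR summits were found at 9 of the 56 (16.1%), beside the 5.44% of all genes. Pooled summits were found at 53 (94.6%), beside 61.9% of all genes. Their windows were longer than average (median 4563 bp against 3027 bp), and in the narrower promoter window to 200 bp downstream of the start 6 of 56 had an IDR summit, beside 2 of the 8 DREAM genes and 3.02% of all genes. Among the 2500 highest pooled regions the numbers were 15 of 56 and 3 of 8, the third being efl-1, beside 9.91% of all genes. These shares describe the lists and carry no test. For each list below, the share of all genes with an IDR summit is the same 5.44%. The lists are short, and no contrast between them is read from their counts.

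Of the 15 other synMuv B genes, 2 (13.3%) carried an IDR summit, beside 5.44% of all genes. For lin-61, which encodes a methyl-histone reader of heterochromatin, the region at I 7251550 to 7251993 had a signal of 287.7 in the pooled list, 140.1 in replicate 1 and 155.0 in replicate 2. Its summit was 490 bp upstream of lin-61 and 169 bp from the start of the kinetochore gene bub-1. For tam-1 the region at V 4962910 to 4963353 had a signal of 247.4, with 120.0 and 126.8 in the replicates, and a summit 30 bp upstream of the start. Of the synMuv B genes without an IDR summit, mep-1 came nearest with a signal of 181.2 (rank 1554), in its 3' UTR. The histone methyltransferase gene met-2 had its best region at rank 2287, the chromatin remodeller gene let-418 at 3772 and the histone deacetylase gene hda-1 at 27022. All 4 synMuv A genes lacked an IDR summit, but lin-56 came near with a signal of 186.4 (rank 1368), followed by lin-8 at 173.2, lin-15A at 163.3 and lin-38 at 133.6.

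Genes listed as acting against synMuv B are chromatin factors of which several are known as suppressors of synMuv B phenotypes. IDR regions were found at 3 of these 8 (37.5%), beside 5.44% of all genes. That of mrg-1, for a chromodomain protein, had a signal of 267.2 at III 12874572 to 12875015, 138 bp upstream of the start. The replicates gave 108.3 and 159.8. That of mes-2, for the methyltransferase of the worm's Polycomb complex, had 233.1 at II 14383668 to 14384111, 83 bp upstream, with 116.9 and 111.3 in the replicates. In zfp-1 there were 3 IDR summits of 243.3, 230.3 and 220.3. All lay inside the gene, 4252, 13437 and 14350 bp from its start, and so outside the promoter window to 200 bp downstream. The highest of these had no summit within 100 bp in replicate 1. The related genes mes-3, mes-4 and mes-6 had pooled signals of up to 125.7, 100.5 and 90.5, and the remodeller gene isw-1 one of 160.3.

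Among 15 cell cycle regulators of G1, S phase and mitosis, 3 (20%) were called, beside 5.44% of all genes. The cyclin E gene cye-1 had the highest signal of all genes in these lists, 945.7 (rank 13), with 480.0 and 464.8 in the replicates, but its summit lay within the tRNA gene C37A2.t1 in an intron of cye-1. The cyclin D gene cyd-1 had an intronic summit of 203.2 (rank 948), and the cyclin B gene cyb-1 one of 193.2 (rank 1168), 324 bp upstream of its start and 304 bp from that of the replication origin gene orc-5. The replicates gave 111.4 and 78.6 at cyb-1 (ranks 622 and 4619). The partner kinase gene of cyclin D, cdk-4, had no summit in any list, and the inhibitor gene cki-1 had a best signal of 154.8. Of 11 replication genes the only one called (9.09%, beside 5.44% of all genes) was cdc-6. Its region at I 4270377 to 4270820 had a signal of 235.0. The summit lay 312 bp upstream of the cdc-6 start and 67 bp from that of acin-1. The replicate signals at cdc-6 were 110.4 and 122.1. The ribonucleotide reductase gene rnr-1 stood just outside the list with 188.8 (rank 1285), and mcm-3 had no pooled summit.

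The paralogues of the members had no IDR summit. The E2F gene efl-3 missed it narrowly, with a signal of 189.5 (rank 1263) 297 bp upstream of its start with a summit in both replicates. The values of the remaining paralogues were 137.8 at efl-2 and 88.8 at rba-1. The E2F genes efl-1, efl-2 and efl-3 all had pooled regions, beside 61.9% of all genes, and none an IDR region, beside 5.44%. With so few genes, these counts are not read as a property of E2F genes.

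**Figure D4:**
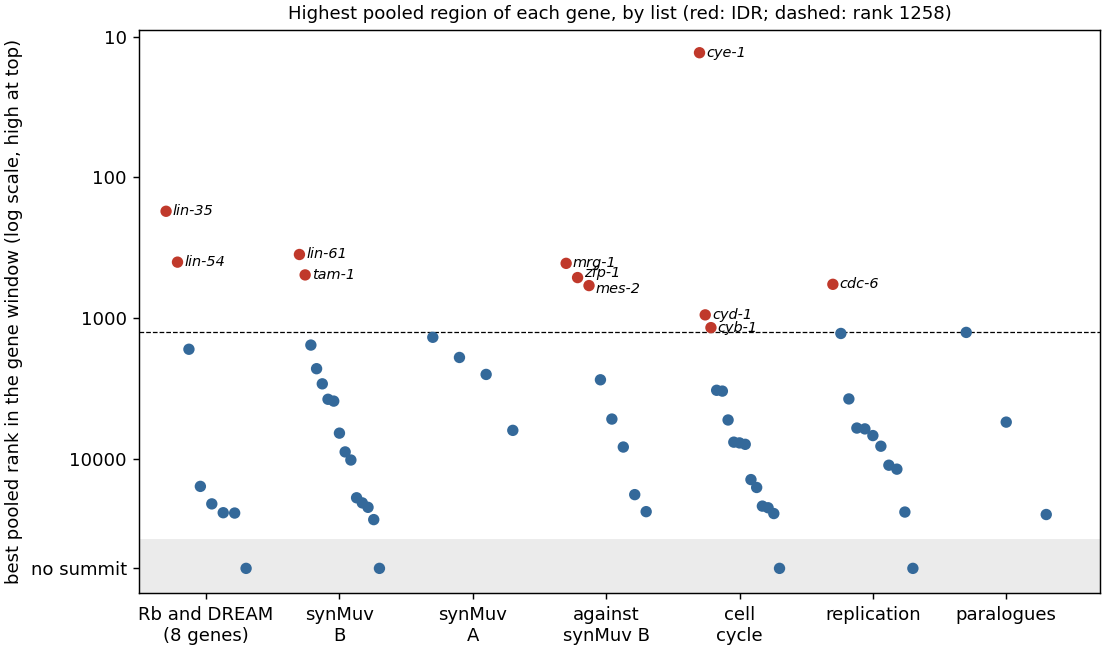
Rank of the highest pooled region in the window of each gene (vertical axis, log scale, rank 1 side at the top) for the 8 genes and the 6 lists of related genes, with IDR genes in red and named, others in blue, and the last rank of the IDR list dashed. The cyclin E gene cye-1 is highest at rank 13, lin-35 follows at 174, and cdk-4, lin-9, mcm-3 and smo-1 have no pooled summit.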

How the data were processed

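Per the deposited file listing, each replicate list was made from its own alignment against a control alignment, the pooled list from both alignments, and the IDR list from these 3, on assembly ce11. No aligner, peak caller or IDR threshold is named in the labels. The control library was not analysed here. The deposited signal value (column 7 of 10) is the authors' measure for each region, on a scale that is not shared between lists. Regions were ranked by it within each list. Summits were the region start plus the authors' summit column. Ranks and distances carry no correction for depth, which is unknown.

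Genes and exons came from Ensembl release 115 on WBcel235, with symbols from RefSeq by WormBase identifier (19965 of 19973 genes). Chromosome bounds of this assembly held all regions. Coordinates count from 1. Pooled and replicate summits up to 100 bp apart were matched. Sequence words were searched on both strands. The window and distance code was tested on simulated data. Python 3.11.15, numpy 2.4.6 and pandas 2.3.3 were used.

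The text names all 8 genes, neighbours that share a window summit or start within 1000 bp, pathway genes with an IDR summit and up to 4 others per list, and the 5 genes ranked most like lin-35. The genes orc-5, bub-1 and acin-1 are named as the nearest starts. The members and lists were chosen with earlier results of these data known, so no test was made. No promoter table was used, and sequence on chromosome I is not reported here.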

Additional observations from a re-analysis of the deposited data

How the results depend on the processing

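The 2 genes with an IDR summit, lin-35 and lin-54, were counted under 8 alternatives. The count stayed at 2 with a window from 500 bp upstream, a promoter window, any base of the region, the upper part of the IDR list by signal, and the highest regions of either replicate alone (2 to 2). It was 3 with the 2500 highest pooled regions, where 9.91% of all genes are counted, and 1 when a summit was given only to the nearest gene start, both chosen after seeing the data. By that rule the higher lin-35 summit goes to vps-51 and the lin-54 summit to rpl-12, and lin-35 keeps its lower one. The count of genes with a pooled summit was 7 under all but 1 of 5 alternatives and 7 to 8 with 1 replicate left out. Shared summits numbered 8 within 50 bp and 11 within 200 bp. The shares given above for all genes with a pooled summit and for all pooled summits found in both replicates hold for the main settings. Shares for the other windows and match distances are not given here, so these counts describe the 8 genes alone. Pathway genes with an IDR summit numbered 6 to 10 under the other settings of window, list and overlap, 9 to 11 with 1 replicate left out, and 15 with the 2500 highest pooled regions. With windows of 100 bp to either side, pooled summits with a CHR word numbered 9 in place of 5 and with TAATTA 4 in place of 1. Those with GAGAGA numbered 2 in place of 0 and with an E2F word 2 in place of 1. Longer windows hold more words by length alone. Shares of all pooled or IDR windows at this length are not given, and the shares above are for the shorter windows. No enrichment is read from these counts. With 2 replicates, no untagged library and no read totals, weak regions could not be separated from background.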
